A study of Mus musculus with 87 samples.

Results

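The genes described here are the protein-coding genes of ribosome biogenesis and RNA polymerase I (Pol I) in the mouse liver, followed after partial hepatectomy (PH) and after sham surgery. They were chosen by name, from a list of 45 gene symbols. The rule that picks them uses no measured value, but the list was drawn up with earlier results of these data known. Of these, 44 were found among the 22707 protein-coding genes of the deposited RNA-Seq table and 1, Noc2l, was not analysed here. Expression was given as log2 RPKM, the number of reads for each kb of exon in a library, set against the reads mapped in all. All 44 genes passed the detection threshold of −1.5 (log2 RPKM), in all 80 libraries analysed with the exception of Rrp1b, which passed it in 79. The 44 genes hold 5 genes of Pol I and its cofactor Tcof1, 4 of the box C/D and 4 of the box H/ACA ribonucleoproteins, 12 of the small and 14 of the large ribosomal subunit, and 5 other nucleolar proteins.

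All mice were C57BL/6 males, unmodified, entrained to a light cycle with food in the dark phase only. Their labelled age of 12 to 14 weeks is given by the study as that at surgery. The mice of 1 and 4 weeks after PH were therefore older when their livers were taken. Each library held poly(A) RNA of the liver of 1 mouse, so that all cell types of the liver were measured together. Surgery was at ZT2 (hours after lights on). Unoperated livers were taken at ZT2 (C0, 9 libraries), at ZT6 (C4, 3) and with the 4-week time point (C4W, 2). Sham-operated livers, which lost no tissue, were taken after 1 h (S1, 6 libraries), 4 h (S4, 5), 10 h (S10, 3), 20 h (S20, 3) and 48 h (S48, 3). Livers from which the larger part had been removed were taken after 1 h (X1, 6), 4 h (X4, 3), 10 h (X10, 6), 20 h (X20, 6), 28 h (X28, 3), 36 h (X36, 6), 44 h (X44, 3), 48 h (X48, 5), 72 h (X72, 3), 1 week (X1W, 3) and 4 weeks (X4W, 2). The study worked in 3 separate periods. It gives S48, X28, X44, X48, X72 and X1W to the first, S10, S20, X4W and C4W to the second and C4 to the third, and spreads C0 over all 3 and S1, S4, X1, X4, X10, X20 and X36 over the first and second. Which libraries of a spread group belong to which period is not given. A fit with a term for the period, added after the data were seen, therefore assumed that replicates 1 to 3, 4 to 6 and 7 to 9 of these groups follow the order of the periods. In bulk liver, a change in the share of a cell type and a change in RNA per cell cannot be told apart.

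Ribosomes are assembled in the nucleolus, where Pol I transcribes the ribosomal DNA into a single long precursor RNA. Small nucleolar ribonucleoproteins modify this precursor, those of box C/D by methylation and those of box H/ACA by pseudouridylation, while large complexes fold and cut it into the RNAs of the small and large subunits. A cell that grows towards division needs more ribosomes, and many of these genes are known targets of the transcription factor Myc, which binds the E-box motif.

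Promoters are shown for 4 of the 6 genes whose window held this motif, 3 of them higher after PH than after sham at 10 h and 1 not, and for Nop58, the gene with the widest range of levels. Those of Imp4 and Utp20 are not shown. RefSeq promoter windows (GRCm38.p6, 300 bases each) were given for 37 of the 44 genes. The E-box CACGTG stood in 6 of the 37 genes (16.2%), which are Imp4, Mybbp1a, Nop2, Pes1, Utp20 and Wdr43, against 11.6% of 8909 detected coding genes and 8.09% of all 27025 genes with a window. The other motifs searched, on both strands, were CCGGAAG (an ETS site, in 29.7% of the 37 genes and 19.2% of the detected coding genes), GGGCGG (a GC box, 75.7% and 66.4%), CCAAT (35.1% and 43.4%) and TCTCGCG (10.8% and 5.85%). No motif of these is contained in another, and a match is a description of these letters only. In the first 4 windows below the capitals mark the E-box, and in the window of Nop58, which has none, they mark TCTCGCG. The windows are Mybbp1a at chr11:72441077-72441376 on the + strand, Wdr43 at chr17:71615965-71616264 on the + strand, Nop2 at chr6:125131633-125131932 on the + strand, Pes1 at chr11:3963725-3964024 on the + strand and Nop58 at chr1:59684756-59685055 on the + strand, each written 5′ to 3′ along its gene.
Mybbp1a: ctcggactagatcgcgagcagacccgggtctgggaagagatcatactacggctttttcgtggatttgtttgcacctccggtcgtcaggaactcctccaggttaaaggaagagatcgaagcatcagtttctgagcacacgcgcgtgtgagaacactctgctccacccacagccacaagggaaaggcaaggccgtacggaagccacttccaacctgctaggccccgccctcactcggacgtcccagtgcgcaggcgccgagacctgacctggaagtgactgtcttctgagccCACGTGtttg
Wdr43: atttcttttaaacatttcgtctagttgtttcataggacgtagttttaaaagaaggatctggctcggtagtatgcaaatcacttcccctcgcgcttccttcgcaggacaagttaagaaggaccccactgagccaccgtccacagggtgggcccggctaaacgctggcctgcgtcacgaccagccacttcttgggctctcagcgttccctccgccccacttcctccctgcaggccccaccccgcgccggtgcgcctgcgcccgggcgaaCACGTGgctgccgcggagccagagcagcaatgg
Nop2: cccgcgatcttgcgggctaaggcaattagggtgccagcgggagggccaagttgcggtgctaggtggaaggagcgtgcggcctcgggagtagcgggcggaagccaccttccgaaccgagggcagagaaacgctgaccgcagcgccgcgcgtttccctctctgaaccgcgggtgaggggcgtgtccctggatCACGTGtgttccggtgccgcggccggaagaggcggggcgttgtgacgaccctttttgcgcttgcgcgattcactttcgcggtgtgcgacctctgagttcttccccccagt
Pes1: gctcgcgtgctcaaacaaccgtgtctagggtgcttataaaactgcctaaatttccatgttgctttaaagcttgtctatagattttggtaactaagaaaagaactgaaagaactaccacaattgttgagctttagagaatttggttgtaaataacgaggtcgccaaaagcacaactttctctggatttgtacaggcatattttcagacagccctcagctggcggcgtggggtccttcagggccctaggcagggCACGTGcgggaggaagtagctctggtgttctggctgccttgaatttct
Nop58: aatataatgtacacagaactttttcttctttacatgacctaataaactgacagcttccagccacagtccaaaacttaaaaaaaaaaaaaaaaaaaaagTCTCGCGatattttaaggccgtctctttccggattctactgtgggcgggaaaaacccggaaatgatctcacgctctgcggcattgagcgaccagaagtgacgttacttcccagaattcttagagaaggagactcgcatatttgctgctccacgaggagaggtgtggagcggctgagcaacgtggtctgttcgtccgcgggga
The first base of the E-box stood at position 41 in Mybbp1a, 18 in Wdr43 and 3 in Pes1, and at −60 in Nop2, with the start of the gene as position 1. Mybbp1a, Wdr43 and Nop2, and Utp20, were higher after PH than after sham at 10 h and Imp4 at 48 h, while Pes1 was not called at any hour.

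**Figure D1:**
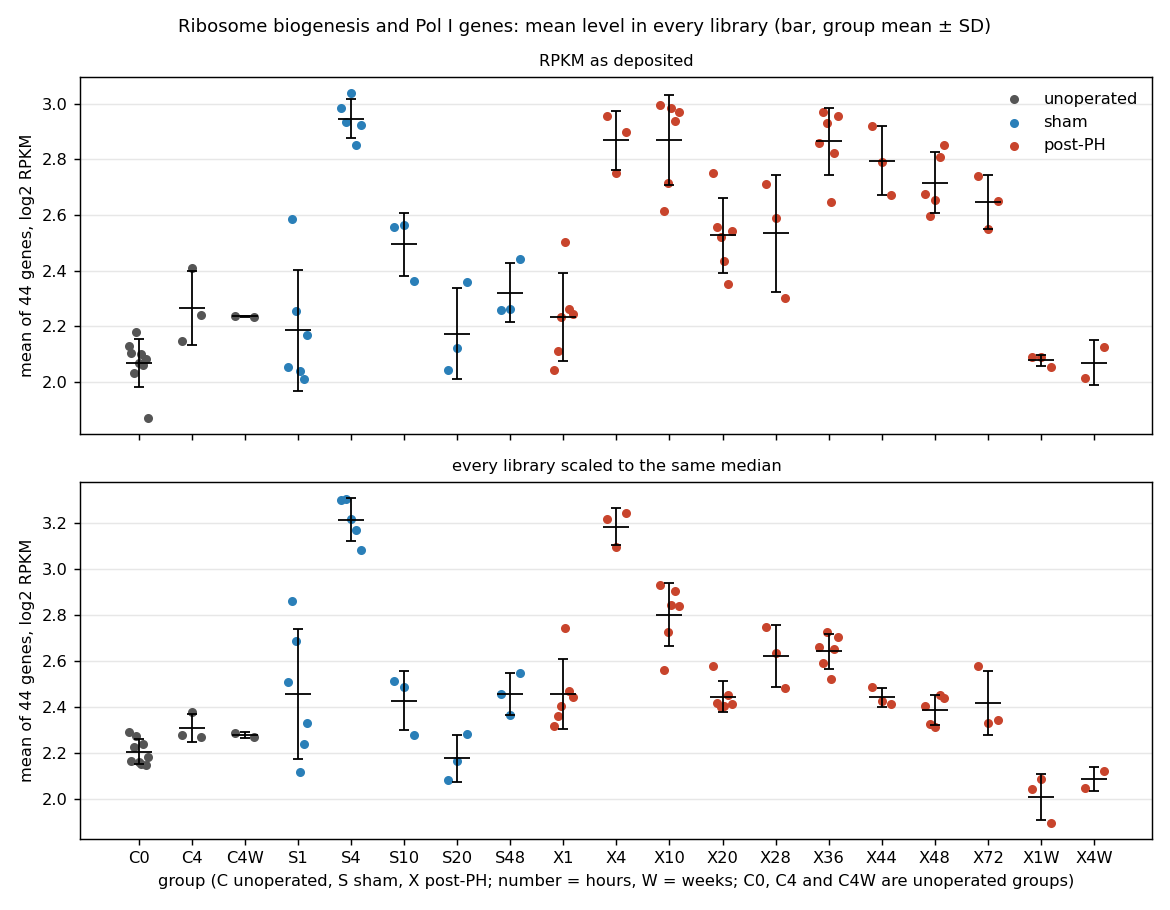
Mean log2 RPKM of the 44 genes in each library (points) with the group mean and SD (bars), for unoperated, sham and post-PH livers, as deposited (upper panel) and with all library medians made equal (lower panel). The 5 S4 libraries and the 3 X4 libraries lie together above C0, and the later post-PH groups stay above C0 until 72 h, by less where the medians were made equal.

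The mean level of the 44 genes (log2 RPKM, with 0.25 added to each RPKM) was 2.07 ± 0.09 (SD, n = 9) in C0. After sham surgery it was 2.19 ± 0.22 (n = 6) at 1 h, 2.95 ± 0.07 (n = 5) at 4 h, 2.49 ± 0.11 (n = 3) at 10 h, 2.17 ± 0.16 (n = 3) at 20 h and 2.32 ± 0.11 (n = 3) at 48 h. The sham course was highest at 4 h, where every library lay above every C0 and C4 library. After PH the mean level was 2.23 ± 0.16 (n = 6) at 1 h, 2.87 ± 0.10 (n = 3) at 4 h, 2.87 ± 0.16 (n = 6) at 10 h, 2.53 ± 0.13 (n = 6) at 20 h, 2.53 ± 0.21 (n = 3) at 28 h and 2.86 ± 0.12 (n = 6) at 36 h. It was then 2.79 ± 0.12 (n = 3) at 44 h, 2.72 ± 0.11 (n = 5) at 48 h, 2.65 ± 0.10 (n = 3) at 72 h, 2.08 ± 0.02 (n = 3) at 1 week and 2.07 ± 0.08 (n = 2) at 4 weeks. As deposited, the post-PH course thus had a high level at 4 and 10 h, a lower one at 20 and 28 h and a second high level at 36 h. In a second scaling, all libraries were brought to equal medians over the detected genes. The 36 h level stood 0.44 above C0 in place of 0.80. That at 44 h stood 0.24 above in place of 0.73, and that at 48 h 0.18 in place of 0.65. The 4 h levels stood 1.01 (S4) and 0.98 (X4) above C0. After PH the 10 h level then stood 0.60 above C0, below that at 4 h, and those at 20 and 28 h stood 0.24 and 0.42 above. The levels at 28 and 36 h were thus near each other at this scaling, both above that at 20 h.

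The genes named were compared between groups with limma on log2(RPKM + 0.25), a scale on which the changes of low genes come out too small, and a gene was called higher or lower at a Benjamini-Hochberg adjusted p under 0.05 over all 15396 detected genes and a log2 difference beyond 0.5. At 4 h after sham surgery most of these genes were higher, without any loss of tissue. Against the unoperated C4 livers of the same ZT, 30 of the 44 genes were higher and 1 lower in S4, with a median log2 difference of 0.62, while 12.2% of all genes tested were higher, 31.0% lower, and the median of all genes was −0.22. At equal medians, 36 of the 44 were higher and 0 lower, and the calls over all genes moved from 1886 higher of 6663 to 2894 of 6299. The C4 livers are of the third period and the S4 livers of the first and second. With the period term, which rests on the C0 livers of each period, 23 of the 44 genes were higher and 1 lower, and 1083 of 5180 calls over all genes were higher.

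The largest rise at 4 h was that of Nop58, a core protein of the box C/D particles (ENSMUSG00000026020, mm9 chr1:59741853-59768968, + strand). Its RPKM was 34.6, 30.5, 32.0, 22.4 and 23.3 in the 5 S4 libraries and 4.68, 6.55 and 5.08 in the 3 C4 libraries. The groups did not overlap, and the log2 difference was 2.33 ± 0.21 (SE), with an adjusted p of 1.37e-14 (limma), and 2.43 with the period term. Heatr1, a component of the small-subunit processome that also takes part in Pol I transcription, had 8.09, 7.49, 7.15, 6.77 and 7.39 RPKM in S4 against 1.65, 1.78 and 1.81 in C4 (log2 difference 1.93 ± 0.14, adjusted p = 4.85e-18, limma), and the difference was 1.61 with the period term. Its X4 libraries, at 11.1, 8.61 and 11.4 RPKM, were all above S4, although the difference between X4 and S4 (0.47) was below the size needed for a call.

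By role, the S4 calls against C4 covered 4 of the 5 genes of the Pol I group, 2 of the 4 of box C/D, 9 of the 12 of the small subunit, 11 of the 14 of the large subunit and 3 of the 5 other nucleolar genes. The Pol I subunits Polr1a (log2 difference 0.74), Polr1b (0.56), Polr1c (0.64) and Polr1e (0.93) were each higher. In the small-subunit group Rrp12 (1.59), Bysl (1.29) and Utp20 (1.08), which act in cutting and late maturation of the small subunit, rose with Heatr1. In the large-subunit group the assembly factor Rrs1 (1.40), Rrp1b (1.24) and the RNA methyltransferase Nop2 (1.21) led. The box H/ACA particle differed from these, with Gar1 higher (0.57), Nop10 lower (−0.67), and Dkc1, the pseudouridine synthase, (−0.15) and Nhp2 (−0.37) not called.

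**Figure D2:**
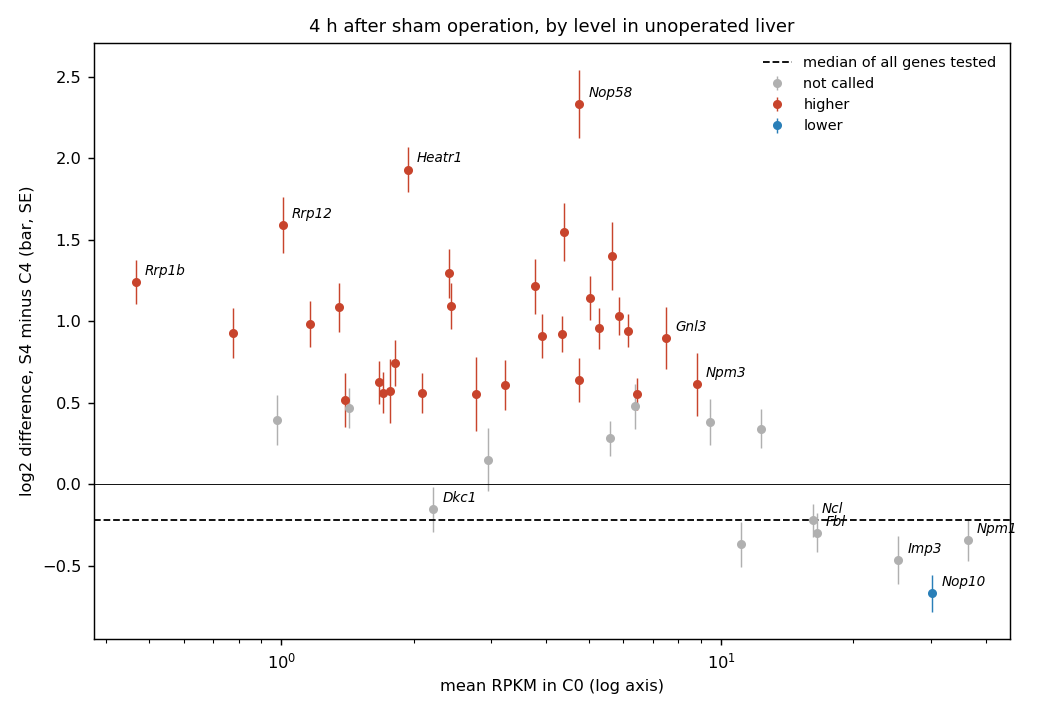
Log2 difference between S4 and C4 with its SE (y axis) against mean RPKM in unoperated C0 liver (x axis, log scale) for the 44 genes, coloured by call, with the median of all genes tested as a dashed line. The genes of highest level, Npm1, Nop10, Imp3, Fbl and Ncl, lie at or below the dashed line, and Nop58, Heatr1 and Rrp12 lie highest.

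Genes of high and low level in resting liver moved apart at 4 h. The 10 genes of highest RPKM in C0 were Npm1, Nop10, Imp3, Fbl, Ncl, Nop16, Nhp2, Wdr74, Npm3 and Gnl3, at 7.51 RPKM or more. Of these, 2 (Gnl3 and Npm3) were higher and 1 was lower in S4, with a median log2 difference of −0.26, while 28 of the other 34 genes were higher, with a median of 0.92. This was not confined to 4 h. Against C0, the medians of the 10 and the other 34 genes were 0.07 and 0.49 in S10 and −0.35 and 0.25 in S20. They were 0.24 and 0.97 in X10 and 0.29 and 0.94 in X36. The order was the other way in C4 against C0 (0.33 and 0.10) and in X4W against C4W (−0.09 and −0.13). Npm1, the nucleolar chaperone nucleophosmin and the most abundant of the 44 genes, had 34.7, 33.3, 38.2, 32.6 and 31.3 RPKM in S4 and 42.3, 45.1 and 42.1 in C4, and its difference of −0.34 was not called. Fbl, the methyltransferase of the box C/D particle, had 16.1, 15.2, 19.6, 17.4 and 16.9 RPKM in S4 and 19.9, 24.03 and 19.3 in C4 (−0.30, not called). Nop10 had 22.9, 22.4, 24.3, 24.9 and 22.4 RPKM in S4 against 37.1, 44.9 and 31.2 in C4 (adjusted p = 1.27e-06, limma). Against C4, the box C/D particle therefore had Nop58 5.04-fold higher, beside Fbl and Nop56, which were not called in S4. Nop56 was itself higher in C4 than in C0 (0.65). In the sham course with C0 its group mean was also highest at S4, with a range of 0.80 (log2).

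Time of day was examined in the unoperated livers, taken at ZT2 and ZT6. In C4 against C0, 7 of the 44 genes were higher and 0 lower (5.81% and 2.08% of all genes), which were Ppan (0.87), Gnl3 (0.81), Nop56 (0.65), Imp3 (0.64), Rrp9 (0.60), Wdr74 (0.53) and Gar1 (0.52). With C4 replicate 2 left out, 3 were higher, and with the period term 1 was. The period term moved the calls over all genes from 894 higher of 1215 to 171 of 200. Higher genes made up 73.6% as deposited and 51.5% at equal medians of the calls over all genes. The comparisons with C0 at ZT12, ZT14, ZT22 and ZT3 below have no unoperated group of the same ZT, so that time of day and time after surgery cannot be told apart in them.

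After sham surgery fewer genes were higher at the other hours than at 4 h. In S1 against C0, 2 genes were higher, Nolc1 (0.61) and Gnl3 (0.60), and 0 lower, with 2.44% of all genes higher and 5.34% lower. Without S1 replicate 2, 4 or 5 the count was 0, 5 or 6. In S10 against C0, 17 genes were higher and 0 lower (17.9% and 11.2% of all genes), led by Bysl (0.98), Nop2 (0.90) and Ftsj3 (0.88), and 9 were higher at equal medians. In S20 against C0, 2 were higher, Rrp12 (0.60) and Polr1a (0.57), and 2 lower, Npm1 (−0.65) and Imp3 (−0.50), with 7.85% of all genes higher and 4.29% lower. Leaving out C0 replicate 2 or S20 replicate 1, 2 or 3 gave 4, 4, 5 and 1 higher, and leaving out C0 replicate 1, 3, 7, 8 or 9 or S20 replicate 1 gave 1 lower. In S48 against C0, at the same ZT, 9 were higher and 0 lower (3.83% and 5.05% of all genes), led by Nop58 (0.82), Rrp12 (0.70) and Rrs1 (0.65). The mean level of the 44 genes at 48 h was 0.25 above C0, as deposited and at equal medians. With the period term, 0 genes were higher in S20 and 5 in S48. At 1, 10 and 20 h, higher genes made up 31.3%, 61.3% and 64.6% as deposited and 56.3%, 36.9% and 36.1% at equal medians of the calls over all genes.

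**Figure D3:**
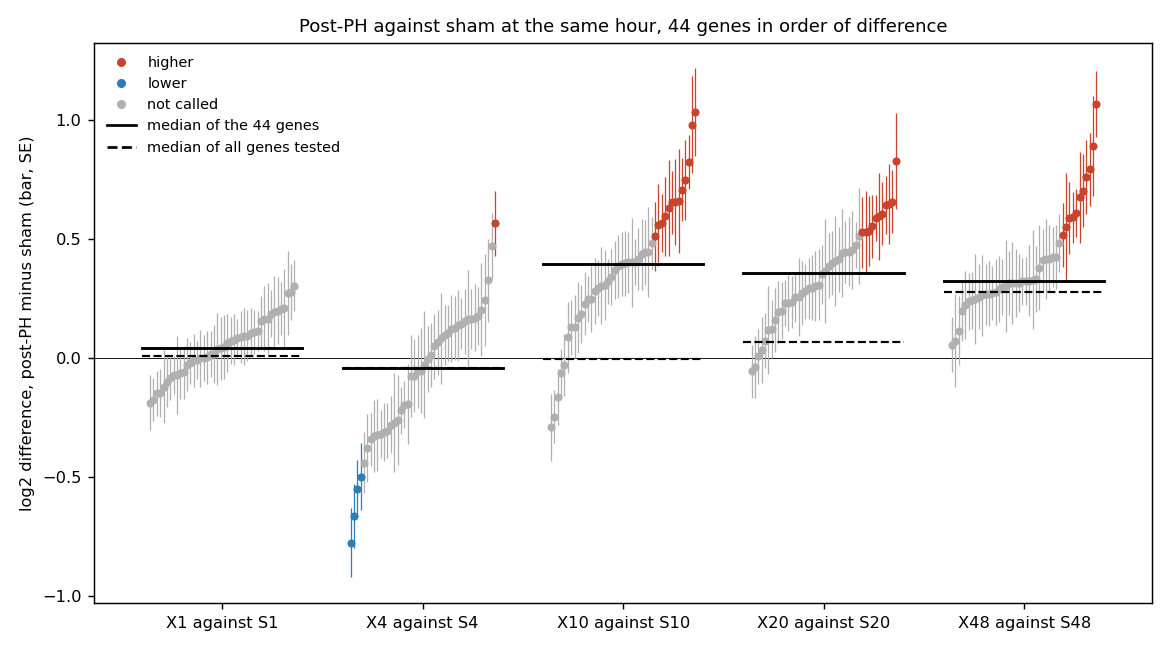
Log2 difference between post-PH and sham livers of the same hour with its SE (y axis) for the 44 genes, ordered by size within each of 5 hours (x axis) and coloured by call, with the medians of the 44 genes (solid) and of all genes tested (dashed). At 10 and 20 h the solid line stands above the dashed one, and at 48 h the lines lie close together.

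Post-PH and sham livers of the same hour and ZT were then compared to find what tissue loss added. At 1 h, 0 of the 44 genes were called in either direction in X1 against S1 by limma, with 0.624% of all genes higher and 0.026% lower, and 2 of the 44 had an unadjusted p under 0.05. When X1 and S1 were restricted to replicates 4 to 6, 4 genes were higher. At 4 h, 1 gene was higher and 4 were lower (3.16% and 5.48% of all genes, with 486 higher of 1330 calls as deposited and 710 of 1472 at equal medians), and the median of the 44 genes equalled that of all genes at −0.04. Every X4 library lay below every S4 library for 13 of the 44 genes (14.7% of all genes) and above for 3 (6.98%). In this comparison 16 of the 44 had an unadjusted p under 0.05 (limma).

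The gene higher at 4 h was Rrp1b, which acts in large-subunit assembly, with 2.16, 1.94 and 2.66 RPKM in X4 and 1.40, 1.47, 1.37, 1.42 and 1.499 in S4 (log2 difference 0.56 ± 0.14, adjusted p = 0.00195, limma). Without X4 replicate 6 its difference was 0.45 and it was not called, and without S4 replicate 1 or X4 replicate 5 the number of genes higher was 2. Imp3, a protein of the U3 small nucleolar ribonucleoprotein, fell most, with 17.5, 16.05 and 15.7 RPKM in X4 against 28.0, 28.3, 29.3, 26.2 and 29.7 in S4 (−0.78 ± 0.14, adjusted p = 7.88e-05, limma). Polr1c, a subunit shared by Pol I and Pol III, had 4.49, 4.70 and 4.56 RPKM in X4 against 8.03, 7.02, 8.92, 6.43 and 6.89 in S4 (−0.66 ± 0.13, adjusted p = 0.000237, limma). These groups do not overlap for any of the 3 genes.

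The remaining calls at 4 h were in large-subunit factors and stood close to the threshold. Nop16 had 9.77, 9.24 and 11.5 RPKM in X4 and 13.7, 15.9, 18.6, 14.0 and 13.2 in S4 (−0.55 ± 0.12, adjusted p = 0.000664, limma). Wdr74 had 12.3, 11.8 and 13.3 in X4 and 18.6, 17.8, 20.4, 16.2 and 16.03 in S4 (−0.50 ± 0.14, adjusted p = 0.00893, limma). Both calls were lost without S4 replicate 3 or X4 replicate 5, and the count lower was then 2. The 3 X4 libraries are numbered 4 to 6, and with S4 restricted to its replicates 4 and 5, 2 genes were lower, Imp3 and Polr1c. The period term also left 2 lower.

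At 10 h the post-PH livers were higher in a group of these genes. In X10 against S10, 13 of the 44 genes were higher and 0 lower, while 3.4% of all genes were higher and 3.62% lower, and the median log2 difference was 0.40 against −0.005 for all genes. Every X10 library lay above every S10 library for 22 of the 44 genes, which held for 9.2% of all genes. The 13 genes included 3 of the 4 of box C/D, 5 of the 14 of the large subunit, 3 of the 12 of the small subunit, 2 of the 5 other nucleolar genes, and 0 of the Pol I and box H/ACA groups. Without S10 replicate 3 the count was 7, and with X10 restricted to its replicates 1 to 3 or 4 to 6 it was 7 or 19. All S10 livers are of the second period, to which X10 replicates 4 to 6 would belong by their numbers, and with the period term 13 genes were higher.

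Nop56, which pairs with Nop58 in the box C/D particle, differed most at 10 h. Its RPKM had a lowest value of 5.08, a median of 8.30 and a highest value of 9.48 in the 6 X10 libraries, and was 3.79, 3.94 and 2.83 in S10. The groups did not overlap, although 2 X10 libraries stood nearer to sham than the other 4 (log2 difference 1.03 ± 0.19, adjusted p = 6.59e-05, limma). Exons of Nop56 overlap 3 small nucleolar RNA genes of the same strand, whose reads cannot be told apart from its own there.

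Nop58 ranged from 11.8 to 18.1 RPKM in X10, with a median of 14.5, and had 8.57, 7.42 and 6.22 in S10 (0.98 ± 0.20, adjusted p = 0.000521, limma). Mybbp1a, a nucleolar protein that binds Myb, ranged from 11.2 to 16.7 RPKM in X10, with a median of 16.2, and had 8.10, 9.18 and 7.72 in S10 (0.82 ± 0.12, adjusted p = 5.9e-07, limma). Neither gene had overlapping groups. The other 10 genes were Rrp12 (0.74), Wdr43 (0.70), Ppan (0.66), Gnl3 (0.65), Ddx21 (0.65), Rrs1 (0.63), Nop2 (0.59), Gnl2 (0.57), Nolc1 (0.56) and Utp20 (0.51).

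The 5 genes of the Pol I group among the 44 were not called between X10 and S10. Polr1a, the largest subunit, ranged from 3.11 to 4.18 RPKM in X10, with a median of 3.92, and had 3.16, 3.35 and 3.02 in S10, with a log2 difference of 0.25 and an adjusted p of 0.262 (limma). Polr1b, the second-largest, differed by 0.18 and Polr1e by 0.43. Fbl ranged from 15.5 to 21.5 RPKM in X10, with a median of 18.1, and had 17.8, 16.6 and 15.7 in S10, so that its groups overlap (0.13, adjusted p = 0.551, limma).

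**Figure D4:**
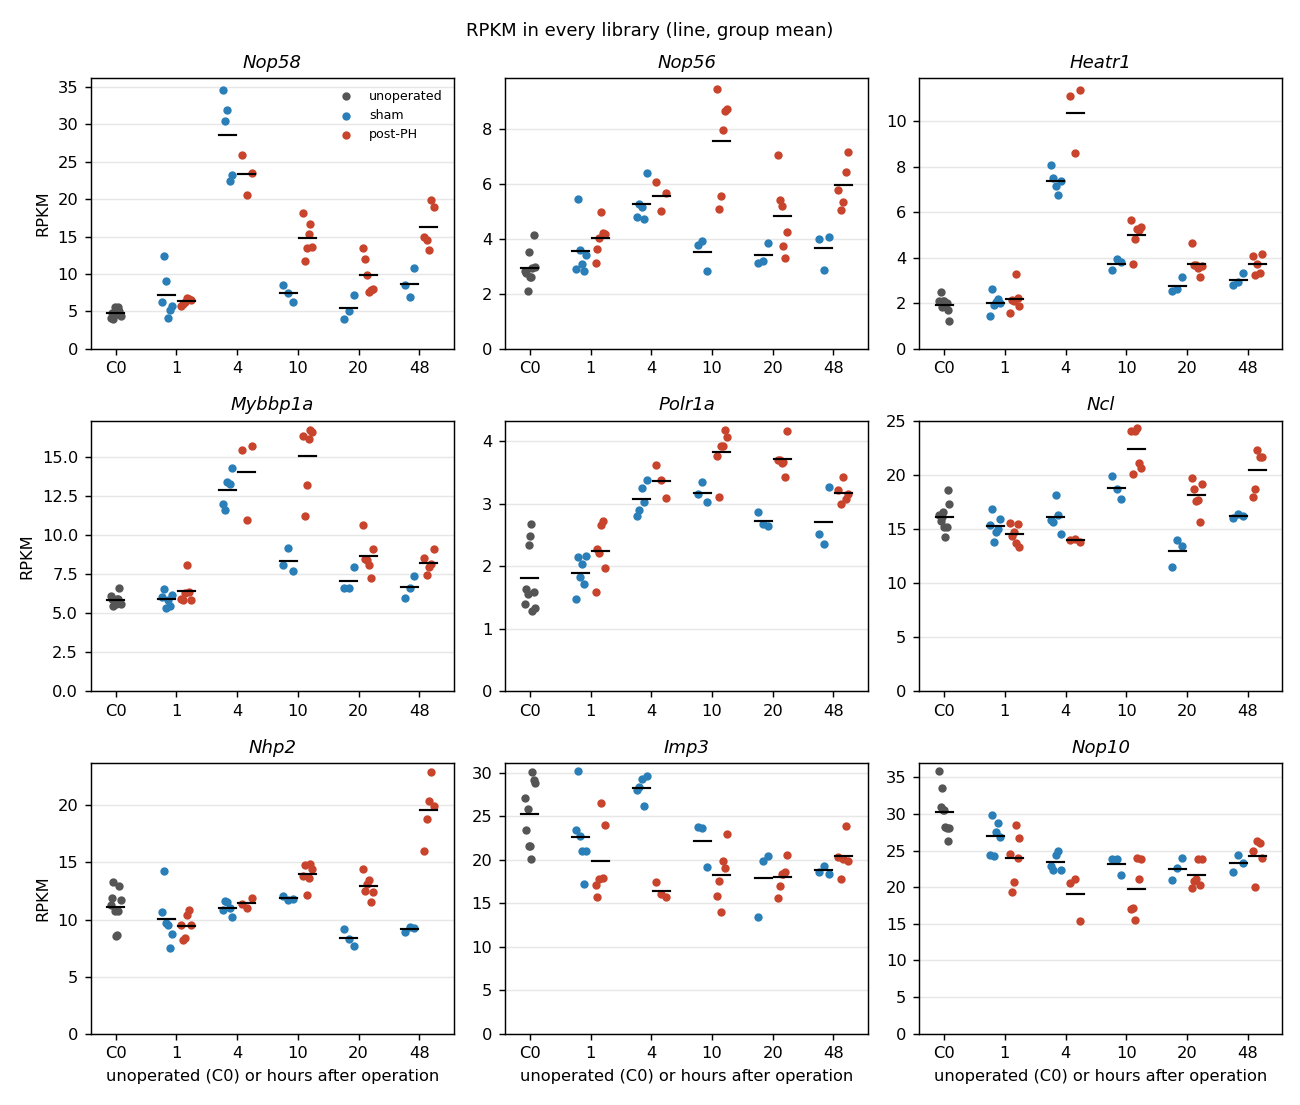
RPKM (y axis, from 0) of 9 genes in every C0, sham and post-PH library of the 5 hours that both courses share (x axis), with group means as lines. Nop58 and Heatr1 are highest at 4 h after both operations, Nop56 and Mybbp1a have X10 above S10, Nhp2 has X48 above S48, and Nop10 lies below its C0 mean in all operated libraries shown.

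At 20 h, when most sham values were back near C0, 11 of the 44 genes were higher in X20 than in S20 and 0 lower, with 4.49% of all genes higher and 2.61% lower, and a median log2 difference of 0.36 against 0.07 for all genes. Every X20 library was above every S20 library for 15 genes (10.7% of all genes). Equal medians left 5 genes higher, and the calls over all genes moved from 692 higher of 1094 to 449 of 1038. Leaving out S20 replicate 1 gave 5 and X20 replicate 1 gave 6, and X20 replicates 1 to 3 alone gave 18 while replicates 4 to 6 gave 5. All S20 livers are of the second period, to which X20 replicates 4 to 6 would belong by their numbers, and with the period term 10 genes were higher.

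Nop58 again led, with a lowest value of 7.63, a median of 8.93 and a highest of 13.5 RPKM in X20, and 4.01, 5.10 and 7.21 in S20 (0.83 ± 0.20, adjusted p = 0.00367, limma). The lowest X20 library stood just above the highest S20 library, and X20 replicates 1 to 3 were above replicates 4 to 6. Ddx21, an RNA helicase of the nucleolus, ranged from 8.23 to 11.4 RPKM in X20, with a median of 9.46, and had 5.58, 5.43 and 6.71 in S20 (0.66 ± 0.13, adjusted p = 0.000516, limma). Rrp12 ranged from 2.30 to 3.08 RPKM, with a median of 2.69, against 1.37, 1.54 and 1.99 in S20 (0.65 ± 0.17, adjusted p = 0.00645, limma).

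The other calls at 20 h were the nucleolar GTPases Gnl2 (0.64) and Gnl3 (0.59), Nhp2 (0.60), Ftsj3 (0.59), Wdr43 (0.55), Bysl (0.53), Nolc1 (0.53) and Polr1e (0.53). Ddx21, Gnl2, Gnl3, Nolc1, Nop58, Rrp12 and Wdr43 were higher at both 10 and 20 h, which is 7 of the 13 genes of 10 h and 7 of the 11 of 20 h. Nucleolin (Ncl), which binds the precursor RNA, had 15.7 to 19.8 RPKM in X20 and 11.5, 14.0 and 13.5 in S20 without overlap, and its difference of 0.47 was below the size needed for a call.

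At 48 h the background had changed. In X48 against S48, 11 of the 44 genes were higher and 0 lower, but 24.5% of all genes tested were also higher and 2.69% lower, and the medians were 0.32 for the 44 genes and 0.27 for all genes. Every X48 library was above every S48 library for 23 of the 44 genes and for 41.5% of all genes. At equal medians, the calls over all genes moved from 3773 higher of 4187 to 1097 of 2827, the median of the 44 genes was −0.14 and 1 of them, Nhp2, was higher. The 11 calls of 48 h are thus near the share of all genes, and their direction as a group turned with the scaling.

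Nhp2, a core protein of the box H/ACA particles and of telomerase, had 15.99, 18.8, 20.4, 22.9 and 19.9 RPKM in the 5 X48 libraries and 8.92, 9.32 and 9.30 in S48 (1.07 ± 0.14, adjusted p = 1.93e-09, limma). The lowest X48 library was well above the highest S48 library. Nop58 had 14.9, 14.6, 13.2, 19.9 and 18.9 RPKM in X48 against 8.46, 6.93 and 10.7 in S48 (0.89 ± 0.21, adjusted p = 0.000372, limma), and after scaling its difference of 0.40 was not called. Nop58 was the only one of the 44 genes called higher at 10, 20 and 48 h.

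Tcof1, the treacle protein that assists Pol I at the ribosomal DNA, had 1.75, 2.09, 2.00, 2.29 and 2.85 RPKM in X48 and 1.07, 1.04 and 1.34 in S48 (0.79 ± 0.15, adjusted p = 2.15e-05, limma). It was not called after scaling (0.36). At the other end, Nop10 had 25.0, 20.1, 26.3, 26.0 and 23.95 RPKM in X48 and 22.1, 24.4 and 23.3 in S48 (0.06, adjusted p = 0.745, limma), and Gar1 had 2.12, 1.79, 2.42, 2.99 and 2.57 against 1.93, 2.06 and 2.75 (0.07, adjusted p = 0.816, limma). Both pairs of groups overlap, so that of the 4 proteins of the box H/ACA particle Nhp2 alone was called.

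The other genes higher at 48 h were Polr1e (0.76), Noc4l (0.70), Nop56 (0.67), Ftsj3 (0.61), Imp4 (0.59), Bysl (0.59), Ppan (0.55) and Rrp1b (0.52). The genes called at none of 10, 20 and 48 h, 23 in number, include Polr1a, Polr1b, Polr1c, Fbl, Ncl, Npm1, Dkc1 and the 3 proteins Bop1, Pes1 and Wdr12, which form a complex of large-subunit maturation.

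Several of the genes not called lay near the threshold. Npm1 ranged from 34.7 to 45.4 RPKM in X10, with a median of 37.2, and had 32.8, 28.2 and 29.3 in S10, so that the groups did not overlap (log2 difference 0.37, adjusted p = 0.0372, limma). Pes1 ranged from 8.59 to 10.9 RPKM in X10, with a median of 10.2, and had 7.35, 8.60 and 7.52 in S10 (0.32, adjusted p = 0.0196, limma). The lowest X10 value of Pes1 lay just below the highest S10 value, and in both genes the difference was below the size needed for a call.

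Noc3l, Wdr75 and Utp15 rose or stood high at 4 h and were not called between the operations. Noc3l, a large-subunit factor, averaged 1.16 ± 0.18 RPKM (SD, n = 9) in C0, 2.62 ± 0.21 (n = 5) in S4 and 2.99 ± 0.37 (n = 3) in X4, and was higher in S4 than in C4 (0.98). Wdr75, of the small-subunit processome, was also higher in S4 than in C4 (0.62), and averaged 3.22 ± 0.23 RPKM in S4 and 3.53 ± 0.36 in X4. Utp15, of the same complex, differed by 0.47 between S4 and C4 and was not called.

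The difference between the courses was tested directly. From 4 to 20 h the mean level of the 44 genes fell in both courses, from 2.95 to 2.17 after sham and from 2.87 to 2.53 after PH. A positive difference, the change after PH minus that after sham, can thus be a smaller fall. The difference was called positive in 15 of the 44 genes and negative in 0, against 8.46% and 2.51% of all genes. Its median was 0.45 against 0.12 for all genes. The 15 genes were Nop58, Ftsj3, Bysl, Gnl3, Imp3, Wdr74, Npm1, Nip7, Ncl, Tcof1, Polr1c, Nop14, Nhp2, Nop16 and Wdr12. Of these, Imp3, Polr1c, Nop16 and Wdr74 were the genes that X4 held below S4. The count was 9 without S20 replicate 1 and 8 at equal medians. For the change from 20 to 48 h, 0 genes were called in either direction by limma (12.5% of all genes were higher and 0.65% lower) and 4 had an unadjusted p under 0.05. Without X48 replicate 1, or with the period term, 1 was higher. Of the calls over all genes in both tests, the shares that were higher were 77.1% and 95.1% as deposited and 50.1% and 48% at equal medians.

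**Figure D5:**
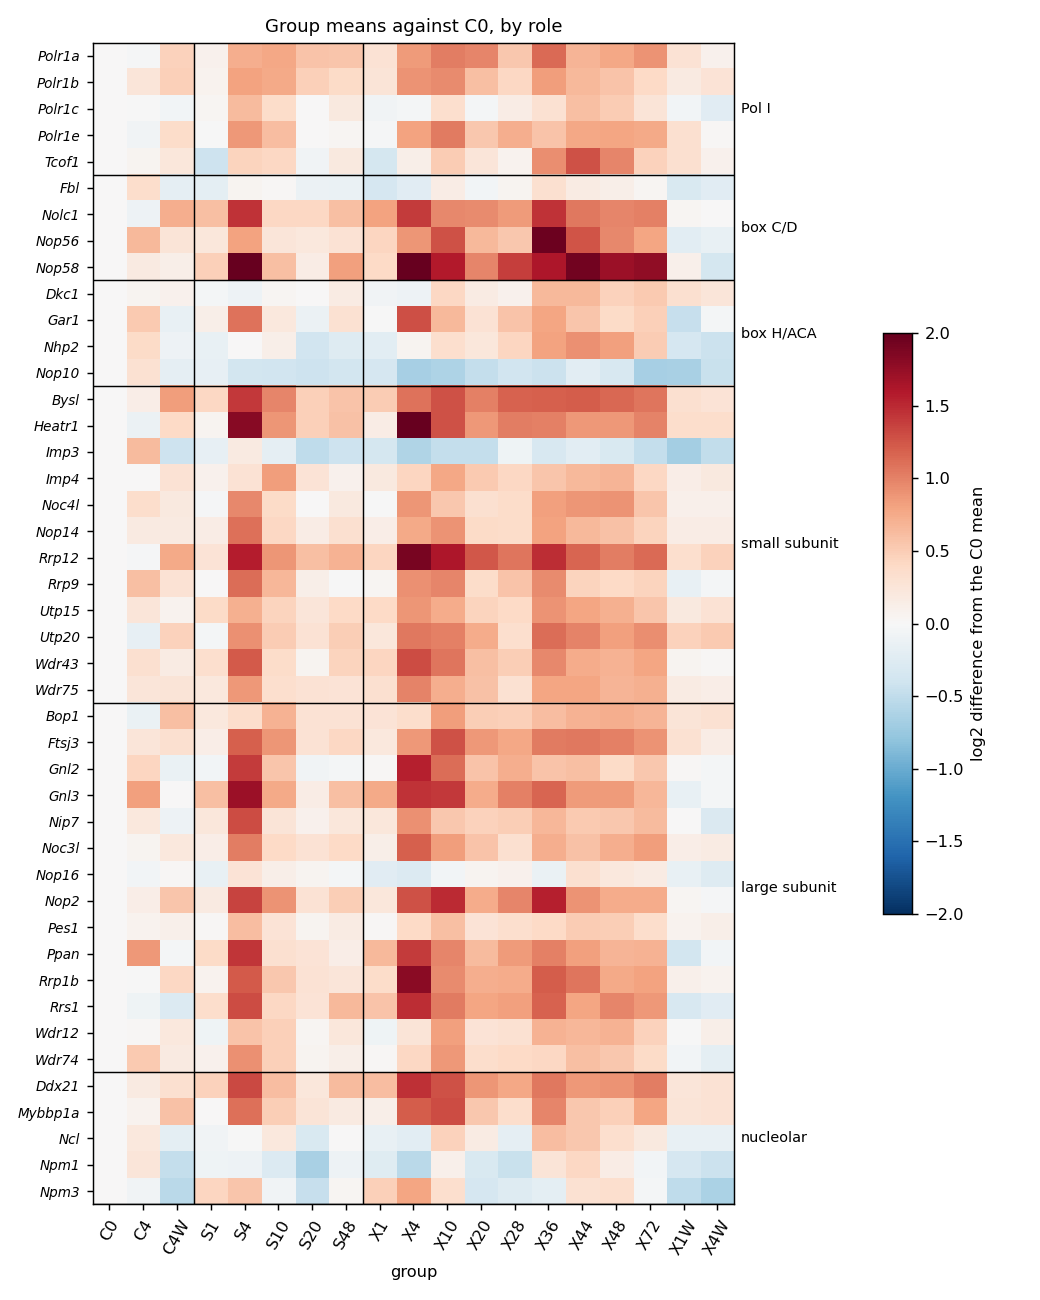
Difference of each group mean from the C0 mean on the log2 scale (colour, limits −2 and 2) for the 44 genes in rows, ordered by role, and the 19 groups in columns, with lines between unoperated, sham and post-PH groups. Red columns at S4, X4, X10 and X36 stand out, and Nop10 and Imp3 are blue in most post-PH columns.

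Against unoperated liver, the post-PH course held 6 or more of the 44 genes higher at each time up to 72 h. In X1 against C0, 6 genes were higher and 0 lower (4.85% and 8.65% of all genes), led by Nolc1 (0.80), Gnl3 (0.76) and Ppan (0.65). In X4 against C4, 26 were higher and 4 lower, where 11.7% of all genes were higher and 33.9% lower. The 4 lower genes were Imp3 (−1.24), Nop10 (−0.98), Npm1 (−0.78) and Fbl (−0.58), and the largest rises were those of Heatr1 (2.40), Nop58 (2.06), Rrp12 (1.91) and Rrp1b (1.80). These comparisons use the same C0 and C4 libraries as the sham ones. Of the calls over all genes in both, the shares that were higher were 35.9% and 25.6% as deposited and 51% and 44.4% at equal medians.

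In X10 against C0, 34 genes were higher and 1, Nop10, was lower (−0.62), with 21.2% of all genes higher and 15.2% lower. Rrp12 (1.62), Nop58 (1.59), Nop2 (1.498) and Gnl3 (1.42) rose most. In X20 against C0, 23 were higher and 0 lower (16.5% and 7.63% of all genes), and 13 were higher at equal medians. In X28 against C4, 14 were higher and 3 lower (14.4% and 18.3% of all genes), with Nop58 (1.21), Heatr1 (1.13) and Rrp12 (1.09) higher and Imp3 (−0.72), Npm1 (−0.69) and Nop10 (−0.69) lower. Against C0 in place of C4, X28 had 0 genes lower. X28 and C4 are of different periods, and with the period term 7 genes were higher and 2 lower. Without C0 replicate 6 or X10 replicate 6, X10 had 2 lower. Of the calls over all genes at 10 and 20 h, the shares that were higher were 58.3% and 68.4% as deposited and 38.3% and 37.5% at equal medians.

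As deposited, the second high level came at 36 h. In X36 against C0, 35 genes were higher and 0 lower, with 25.7% of all genes higher and 9.29% lower, and 20 were higher at equal medians. Among all genes called at 36 h, those higher made up 73.5% as deposited and 38.1% at equal medians. Nop56 rose most, from a lowest value of 2.10, a median of 2.84 and a highest of 4.16 RPKM in the 9 C0 libraries to 8.58, 12.6 and 15.0 in the 6 X36 libraries (log2 difference 1.95 ± 0.14, adjusted p = 6.15e-20, limma). All X36 libraries were above all C0 libraries. Dkc1, which was not called at 4 h, ranged from 3.02 to 4.07 RPKM in X36 and from 1.72 to 2.66 in C0 (0.65), and Polr1a averaged 4.20 ± 0.64 RPKM (n = 6) against 1.81 ± 0.54 (n = 9, log2 difference 1.14). Polr1a differed within C0, at 2.34, 2.48 and 2.68 RPKM in replicates 4 to 6 and between 1.28 and 1.64 in the other 6.

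At 44, 48 and 72 h, 37, 31 and 27 genes were higher than in C0, where 30.8%, 30.4% and 26.6% of all genes were higher and 8.42%, 7.66% and 6.59% lower. At equal medians the counts were 9, 6 and 10, so that the size of the late rise depends on the scaling. Of the calls over all genes, the shares that were higher were 78.5%, 79.9% and 80.1% as deposited and 33.8%, 34% and 40.9% at equal medians. Nop58 rose most at each of these hours (1.94, 1.71 and 1.77), and Tcof1 (1.27) and Nop56 (1.26) followed at 44 h. The genes not called at any of these hours included Fbl, Npm1, Npm3 and Nop16. At 72 h, 1 gene was lower, Nop10 (−0.67), and 2 at equal medians. Leaving out 1 of C0 replicates 4, 5 or 6 or X72 replicate 2 gave 2 lower.

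At 1 week few of the genes differed from C0. In X1W against C0, 0 genes were higher and 3 were lower (12.4% and 4.48% of all genes), which were Imp3 (−0.68), Nop10 (−0.65) and Npm3 (−0.52), and 18 of the 44 had an unadjusted p under 0.05 (limma). At equal medians 9 were lower, and without C0 replicate 6 or X1W replicate 1, 1 was higher. Of the calls over all genes, the share that was higher was 73.5% as deposited and 35.9% at equal medians. In X4W against C4W, with 2 libraries each, 0 were called in either direction by limma, 0.0325% of all genes were higher and 0.0325% lower, and 3 of the 44 had an unadjusted p under 0.05. Nop58 averaged 5.13 ± 0.87 RPKM (SD, n = 3) in X1W and 4.76 ± 0.58 (n = 9) in C0.

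In RPKM as deposited, the 44 genes reached their highest group mean at few times. In the sham course with C0, 36 had it at S4, 5 at S10, 2 at C0 and 1 at S48. In the post-PH course with C0, 15 had it at X4, 12 at X10, 9 at X36, 5 at X44, 2 at C0 and 1 at X48. These times were not recomputed at equal medians. There the mean level stood 0.98 above C0 in X4, 0.60 in X10, 0.44 in X36, 0.24 in X44 and 0.18 in X48. The 2 genes highest in C0 after PH were Nop10 and Imp3, while Nop56 and Polr1a were highest at X36 and Nhp2 and Tcof1 at X44. Over the 19 group means, the correlation of each gene with the mean of the other 43 had a median r of 0.86 and exceeded 0.8 in 31 of the 44 genes. Nop14 (0.95), Ftsj3 (0.95) and Pes1 (0.95) were the most like the rest, and Nop10 (−0.37) and Imp3 (−0.01) the least. These points share libraries and depth, and the correlation is a description.

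Other genes of the pathway were counted by the same calls. Of 96 further ribosome biogenesis genes that were not among the 44, 0 were called in X1 against S1 (3 had an unadjusted p under 0.05), 2 were higher and 3 lower in X4 against S4, 9 higher and 1 lower in X10 against S10, 7 higher and 0 lower in X20 against S20, and 28 higher and 0 lower in X48 against S48. Beside these stand the shares of all genes higher given above, 3.16% at 4 h, 3.4% at 10 h, 4.49% at 20 h and 24.5% at 48 h. Those lower were 5.48% at 4 h and 3.62% at 10 h. The 28 genes of 48 h are near that share, and at equal medians 2 of the 96 were higher at 48 h and 1 at 20 h, where the period term gave 4. The 9 genes at 10 h were led by Tsr1 (0.87), which matures the small subunit, Cd3eap (0.82), a Pol I subunit, and Taf1d (0.80), of the Pol I promoter factor. In S4 against C4, 29 of the 96 were higher and 6 lower, where 12.2% of all genes were higher and 31.0% lower.

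The genes of the ribosome itself were counted beside the factors that build it. Of 78 detected ribosomal protein genes, 0 were higher and 36 lower in S4 against C4, with a median of −0.46, where 31.0% of all genes were lower and the median of all genes was −0.22, and 0 were called in X4 against S4, X10 against S10 and X20 against S20 by limma, where 20, 5 and 18 had an unadjusted p under 0.05. In X48 against S48, 4 of the 78 were higher and 0 lower, where 24.5% of all genes were higher and 2.69% lower. The 12 Pol II subunits had 0 higher and 5 lower in S4 against C4, and the 10 Pol III subunits 1 higher and 2 lower. Myc, the transcription factor named above, averaged 2.92 ± 0.42 RPKM (SD, n = 6) in X10 and 1.92 ± 0.36 (n = 3) in S10. It was not called there (0.55, adjusted p = 0.433, limma), nor in any other comparison of post-PH with sham livers. The log2 differences were 0.11 at 1 h, 0.89 at 4 h, 0.98 at 20 h and 0.36 at 48 h. At 4, 10 and 20 h every post-PH library lay above every sham library. The lowest post-PH values were 2.32, 2.34 and 1.17 RPKM, and the highest sham values 2.04, 2.18 and 1.16. The groups overlapped at 1 and 48 h. Myc varied widely in C0, from 0.39 to 6.12 RPKM. The lack of a call thus does not show equal levels after both operations. In S4 against C4, where most of the 44 genes were higher, Myc was not called (0.59, adjusted p = 0.23, limma). It was higher in X4 than in C4 (1.48, adjusted p = 0.0055, limma) but not than in C0 (0.79, adjusted p = 0.0723, limma), and was also higher in X28 than in C4 (1.44), though not than in C0 (0.75, adjusted p = 0.108, limma), and in X10 (1.02) and X36 (0.76) than in C0. Of the 6 genes with an E-box in the promoter window, 5 were higher in S4 than in C4 and 4 in X10 than in S10, and of the 31 genes whose window had none, 22 and 6 were higher. In X20 against S20 and X48 against S48, 1 of the 6 was higher at each hour, and 8 and 9 of the 31.

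Markers of other cell types moved between some of the same groups, and their part in these results was not tested. In S4 against C4, 3 of 4 neutrophil markers (Retnlg, S100a8 and S100a9) were higher, and the summed level of all 4 was 6.79 to 40.5 RPKM in S4 and 1.02 to 4.36 in C4, with Ly6g listed at 0 in all C4 libraries. In the same comparison 4 of 5 stellate markers, 3 of 3 B cell markers, 2 of 3 erythroid markers, 2 of 5 endothelial markers (Stab2 and Kdr) and 1 of 5 macrophage markers (Clec4f) were lower, with stellate sums of 33.9 to 53.4 RPKM in S4 and 73.2 to 86.1 in C4. Of the cholangiocyte markers Sox9 was higher and Krt19 lower, and of the hepatocyte markers Cps1 was higher and Apoa1 and Ttr lower. In X1 against S1 the neutrophil marker Retnlg was higher, and in X4 against S4 no marker of any list was called. In X10 against S10 the stellate marker Des and Cps1 were higher and Cyp2e1 was lower, with stellate sums of 45.6 to 59.0 RPKM in X10 and 29.6 to 44.3 in S10. In X20 against S20 Dcn, Des and Cps1 were higher and Alas2, an erythroid marker, was lower. In X48 against S48 Des and Rgs5 were higher and Cyp2e1, Ttr and Alas2 lower. Hepatocyte markers were the most abundant in every group, between 25530 and 58307 RPKM in sum. Depth, estimated from the RPKM of a single read, was 12.2 to 48.9 M reads per library (M, mega) with a median of 26.7 M.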

How the data were processed

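Poly(A) RNA of individual mouse livers was sequenced with a stranded kit and single-end reads. Per the labels and the study's methods, the authors mapped reads to mm9 with TopHat2 2.0.13 and Bowtie2, handled alignments with SAMtools 0.1.19, counted exon reads with featureCounts over Ensembl genes, sharing reads with several positions among them, and deposited 1 table of log2 RPKM values for all samples. Samples were grouped by their titles. Of the table's columns, 80 matched a labelled sample and were used, and 4 matched none and were left out. Another 7 labelled samples were not analysed here.

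The log2 values were turned back into RPKM, and log2(RPKM + 0.25) of the 15396 detected genes was fitted with limma 3.58.1 (R 4.3.3; 1 coefficient per group, trended variance, Benjamini-Hochberg adjustment over all genes tested), after the steps were tested on simulated data. Calls needed an adjusted p under 0.05 and a log2 difference beyond 0.5. Summaries and figures used Python 3.11.15, numpy 2.4.6, pandas 2.3.3 and matplotlib 3.10.9. Depth was estimated from the lowest RPKM steps of each library (12.2 to 48.9 M reads). A median of 83.3% of low values (44.0% in the lowest library) lay within 0.05 of a whole read, so no count test was run. Livers were taken in 3 periods, which the model above does not hold. A fit with the period as a term, added after the data were seen, took the period from the study where a group lies in 1 period and otherwise assumed that replicate numbers follow the periods. Deviations from the group means had a median correlation of 0.07 between libraries of different groups in the same assumed period and −0.05 in different ones. Between libraries of 1 group the medians were 0.08 and −0.36.

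All 44 genes are named. Library values (the lowest, median and highest in groups of over 5) are given for the 3 largest rises and the 3 largest falls called between post-PH and sham livers at each hour (4 falls at 4 h), for the 2 largest and 2 smallest differences at 48 h, and for some genes of each role that were not called. The 44 genes and all other gene lists were chosen with earlier results of these data known. Alternatives were pseudocounts of 0.1 and 1, no filter and a stricter filter on low values, libraries at equal medians, quantile normalization, a block for replicate number, a fit of only the 2 groups compared, subsets of replicates, C0 as the control and leaving out each library.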

Additional observations from a re-analysis of the deposited data

Results flagged for a closer look

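One C0 library, replicate 9, had a mean level of the 44 genes of 1.87 (log2 RPKM), below the nearest of the other 8 at 2.03. At equal medians this library had a level of 2.18, within the range of the other C0 libraries, and its median over all detected genes was the lowest of C0 (1.74 RPKM). The gap was 0.521 of the range of the 9 libraries, above the 95% limit of Dixon's test for a group of that size. It was the only group of 29 tested (group levels and levels of genes named) that held such a library, and chance marks about 1 in 20 groups.

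The change from 4 to 20 h differed between post-PH and sham livers in 15 of the 44 genes, by the interaction test in limma. Each value below is the change after PH minus the change after sham. Nop58, of the box C/D group, was highest at 4 h in both courses and fell less after PH, by 1.099 (log2, adjusted p = 0.0075). In the large-subunit group, the difference was 0.9082 for Ftsj3 (adjusted p = 1.42e-05), 0.8561 for Gnl3 (adjusted p = 0.0215) and 0.7944 for Wdr74 (adjusted p = 0.00411). In the same group it was 0.766 for Nip7 (adjusted p = 0.00652), 0.5552 for Nop16 (adjusted p = 0.0187) and 0.5429 for Wdr12 (adjusted p = 0.0241). In the small-subunit group it was 0.861 for Bysl (adjusted p = 0.00405), 0.8097 for Imp3 (adjusted p = 0.00477) and 0.576 for Nop14 (adjusted p = 0.00908). For the nucleolar proteins Npm1 and Ncl it was 0.7911 (adjusted p = 0.00169) and 0.6696 (adjusted p = 0.000789), for Tcof1 and Polr1c of the Pol I group 0.6258 (adjusted p = 0.0388) and 0.6254 (adjusted p = 0.0176), and for Nhp2 of box H/ACA 0.556 (adjusted p = 0.0411). S4 and X4 differed in the other direction for Imp3, Wdr74, Nop16 and Polr1c, which X4 held lower. At equal medians 8 of the 44 genes passed the test.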

How the results depend on the processing

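Of 879 recomputed counts, medians and levels, 736 stayed within their limits, and of 376 recomputed differences of single genes 346 did. The 879 hold 456 from leaving out 1 library, of which 412 stayed. Libraries at equal medians left 28 of 62 within their limits and quantile normalization 24 of 43. Among the single genes, no called difference changed sign, while the median of the 44 genes in X48 against S48 did, as given below. Counts below are of the 44 genes called higher unless stated, and the cause of each change was not tested. With libraries at equal medians, the counts were 2 in X4 against S4, 5 in X20 against S20, 1 in X48 against S48, 8 in S1, 9 in S10 and 0 in S20 (5 lower) against C0, 10 in X1, 13 in X20, 20 in X36, 9 in X44, 6 in X48 and 10 in X72 against C0, with 0 lower in S4 against C4, 2 lower in X10 and X72, 9 lower in X1W, and 8 in the change from 4 to 20 h. The median of X48 against S48 became −0.14. The mean level minus C0 was then 0.072 in C4W, 1.01 in S4, 0.22 in S10, 0.98 in X4, 0.60 in X10, 0.24 in X20, 0.44 in X36, 0.24 in X44, 0.18 in X48, 0.21 in X72, −0.20 in X1W and −0.12 in X4W. Quantile normalization gave 2 higher and 2 lower in X4 against S4 (median 0.051), 5 in X20 against S20, 2 in X48 against S48 (median −0.050), 6 in S1, 10 in S10, 1 in S20, 13 in X20, 11 in X44, 10 in X48 and 12 in X72 (2 lower) against C0, 0 lower in S4, 5 lower in X1W and 8 in the change from 4 to 20 h. A pseudocount of 1 gave 0 in X4 against S4, 6 in X20 against S20, 0 (1 lower) in S20, 5 in S48, 9 in X28 and 4 in C4, and one of 0.1 gave 5 in S20 and 1 in X1W. The stricter filter gave 0 in X4 against S4. For the 96 further ribosome biogenesis genes, equal medians gave 4, 1 and 2 at 4, 20 and 48 h, quantile normalization 1 and 2 at 20 and 48 h, a pseudocount of 1 gave 0, 5, 3 and 15 at 4, 10, 20 and 48 h, the stricter filter 1 at 4 h, and no filter 1 and 4 at 4 and 20 h.

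By replicates, numbers 1 to 3 gave 7 in X10 and 18 in X20 against sham, and numbers 4 to 6 gave 4 in X1 and 5 in X20. S4 replicates 4 and 5 gave 2 lower in X4. C0 replicates 1 to 3 gave 6 in S1, 4 lower in S20 and 2 lower in X72; C0 replicates 4 to 6 gave 1 in S1, 1 in S20, 5 in S48 and 2 lower in X72; C0 replicates 7 to 9 gave 7 in S1, 9 in S20, 15 in S48, 12 in X1, 7 in X1W and 2 lower in X72. C0 as the control gave 0 lower in S4 and X28. The period term, chosen after seeing the data, gave 2 lower in X4 against S4, 0 higher in S20, 5 in S48, 7 in X28, 1 in the change from 20 to 48 h, 1 in C4 against C0 and 4 of the further genes at 20 h. Leaving out 1 library gave 0 to 2 higher and 2 to 4 lower in X4 against S4, 7 to 15 in X10 and 5 to 16 in X20 against sham, 0 to 6 in S1, 1 to 5 higher and 1 to 3 lower in S20, 1 to 2 lower in X10 and X72, 0 to 1 in X1W, 9 to 18 and 0 to 1 in the changes from 4 to 20 h and 20 to 48 h, and 3 to 7 in C4 against C0. For the further genes it gave 0 to 3, 5 to 13 and 2 to 14 at 4, 10 and 20 h.

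Livers with the same replicate number did not deviate together (correlations from −0.186 to 0.273 in post-PH and sham livers), so they were not treated as pairs. These few pairs cannot exclude a shared period. Libraries of different groups had a median correlation of 0.07 in the same assumed period and −0.05 in different ones. Within 1 group the medians were further apart, 0.08 and −0.36, where deviations from a shared mean are pushed below 0. With the replicate block, 2 genes were lower in X4 against S4 and 1 was higher in S20 against C0, and no other count of the 44 genes moved by over 1.5 times. Depth bears most on genes near 1 RPKM, such as Tcof1 and Polr1e, where the pseudocount also weighs most.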

Other observations

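Genes of S phase and mitosis, a list of 12 genes that stands for the cell cycle, were counted in the same comparisons. None of the 12 was called in X4 against S4 by limma, where 1 had an unadjusted p under 0.05, while 1 was higher in X10 against S10, 8 in X20 against S20 (median log2 difference 0.86) and 12 in X48 against S48 (median 3.24). Of all genes, 3.16% were higher at 4 h, 3.4% at 10 h, 4.49% at 20 h and 24.5% at 48 h. For the 44 ribosome biogenesis genes the medians at 10, 20 and 48 h were 0.40, 0.36 and 0.32, and for all genes −0.005, 0.07 and 0.27. The difference between the lists was not tested.

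The 96 further ribosome biogenesis genes held 3 genes lower in X4 than in S4, Sbds (−0.77), which acts in the last steps of the large subunit, Utp3 (−0.72) and Exosc5 (−0.56), a subunit of the RNA exosome. Exosc5 was also lower in X10 than in S10 (−0.63). The shares of the 96 that were lower, 3.1% at 4 h and 1.04% at 10 h, were below those of all genes (5.48% and 3.62%). The genes higher at 48 h, where 24.5% of all genes were higher, were led by Exosc8 (1.14), also of the exosome, and Taf1d (1.01). Of the ribosomal protein genes, 65 of 78 were lower in X1W than in C0, where 4.48% of all genes were lower. Their median log2 difference was −0.70, against 0.12 for all genes. This was not confined to 1 week. In X4 against C4, 61 of the 78 were lower (median −0.65), where 33.9% of all genes were lower, while 1 was lower in X72 against C0. All X1W livers are of the first period, and other scalings were not counted for these genes.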
